A study of Rattus norvegicus with 6 samples.

Results

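The genes described here are 38 interferon response and antigen presentation genes of the rat, followed in the liver of vehicle-treated and flame-retardant-treated animals. They were taken from a list of gene symbols drawn up with earlier results of these data known, by a rule that uses no difference between the groups: every probe on the array whose RefSeq transcript carries a listed symbol was collected, and the probe with the highest mean stood for each gene. Of the 38 genes, 36 had a probe, and Xaf1 and Zbp1 were not matched to one. All 36 passed the filter on dim probes and were tested among 27642 genes in all. RNA came from the livers of 6 male Sprague-Dawley rats (Crl:CD(SD)), an outbred stock, bought at an age of 5 weeks. The control group of 3 animals received corn oil, the vehicle, and the other 3 received tris(2-chloroethyl) phosphate, abbreviated TCEP and used as a flame retardant and plasticiser, at 400 mg/kg/day. Dosing lasted 9 weeks according to the treatment protocol but 28 days according to the design text. Each animal was measured on 1 single-colour Agilent array.

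Interferons are cytokines released by infected and immune cells. Type I interferons signal through the kinases JAK1 and TYK2 to a transcription factor complex that includes STAT2 and IRF9 and binds interferon-stimulated response elements in promoters, while interferon gamma acts through gamma-activated sites. The induced genes include antiviral effectors, sensors of foreign RNA, regulators of the pathway itself, and the immunoproteasome and peptide transporter that supply peptides to class I molecules. In liver they are expressed by hepatocytes as well as by Kupffer cells, endothelial cells and lymphocytes.

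Letter patterns of the elements stood in many of the genes' start regions, which are printed because later paragraphs compare genes that share them. RefSeq promoter windows of assembly GRCr8, from 250 bases before to 50 bases after the gene start, were found for 31 of the 38 genes, and not for Isg15, Zbp1, Ifit2, Dhx58, Mx2, Usp18 or Oas2. The core of the response element, searched as GAAA, any 2 bases and GAAA on both strands, stood in 22 of the 31 windows (71.0%) against 3.92% of 33469 windows of all genes. The gamma-activated site, searched as TTCNNNGAA, which reads the same on both strands, stood in 10 of 31 (32.3%) against 8.87% of all windows. In Bst2 a match of each kind overlapped. A match is a description of letters and not a bound site. The stretches below run 5′ to 3′ on the gene's strand, with the core in capitals. A core on the opposite strand reads TTTC, 2 bases and TTTC. They come from Cxcl10 (chr14:15988816-15988842, plus strand), Rsad2 (chr6:48788248-48788277, minus), Ifit3 (chr1:241527272-241527301, plus), Irf7 (chr1:205800073-205800102, minus), Gbp2 (chr2:234005686-234005715, plus) and Gbp5 (chr2:233910933-233910962, plus), genes whose signal varied among TCEP animals, and from Psmb10 (chr19:50743346-50743375, minus), Tap2 (chr20:4652318-4652347, minus) and B2m (chr3:129549170-129549199, plus), whose signal hardly varied.
Cxcl10: cgctttgGAAAGTGAAActtaactcac
Rsad2: ctggttcaacTTTCATTTTCagaaaacaga
Ifit3: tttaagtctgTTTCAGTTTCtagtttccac
Irf7: acagtttaggTTTCATTTTCccgagacgca
Gbp2: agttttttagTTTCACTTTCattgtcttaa
Gbp5: acttgtgtagTTTCAATTTCagtttagagg
Psmb10: aagcaaaggcGAAAGTGAAAgagaagatgc
Tap2: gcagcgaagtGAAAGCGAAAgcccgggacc
B2m: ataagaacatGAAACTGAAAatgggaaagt

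**Figure D1:**
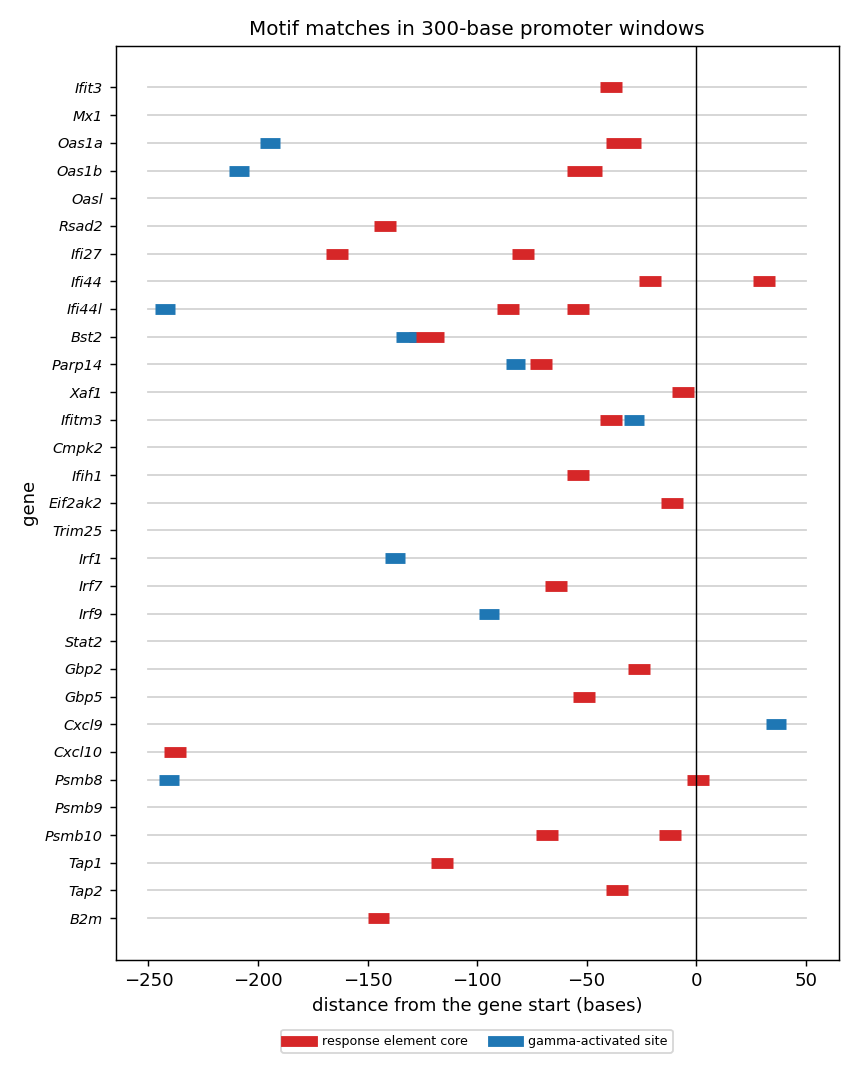
Positions of the response element core (red) and the gamma-activated site (blue) in the RefSeq promoter windows of the 31 genes that have one. The horizontal axis is the distance from the gene start in bases, each row is 1 gene, and grey lines show the window; 22 genes carry a core and 10 a gamma-activated site.

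Of all 27642 genes tested, 0 passed an adjusted p of 0.05 between TCEP and corn oil (limma, Benjamini-Hochberg; 0% called, smallest adjusted p 0.291), and 2543 had an unadjusted p under 0.05. Between 57.2% and 64.4% of probes per array were well above background. Of the 36 interferon genes, 36 were well above background on 5 arrays and 35 on the array of corn oil animal 2. All 10 hepatocyte markers, albumin (Alb) among them, were well above background in both groups, which fits the labelled tissue. The TCEP arrays shared slide 3, corn oil animals 1 and 3 were on slide 1, and corn oil animal 2 was on slide 2 and scanned 23 days apart from the other arrays. Slide and treatment therefore cannot be told apart in the comparison of the groups. Signals are given below as log2 of the processed signal relative to the array's 75th percentile. They compare animals for 1 gene, not genes with each other.

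No difference of the interferon genes between TCEP and corn oil livers was detected with 3 animals per group. Of the 36 genes, 0 passed the adjusted threshold in limma and 0 had an unadjusted p under 0.05, against 5.01% of all genes in the higher and 4.19% in the lower direction at that unadjusted level. The smallest unadjusted p of the 36 was 0.053 (limma, Stat2). The mean was higher in TCEP for 22 genes and lower for 14. The median log2 difference of the genes was 0.021, beside 0.0048 over all genes tested, and single genes ran from -0.24 (Rsad2) to 0.43 (Usp18). The values of the groups did not overlap for 1 gene, Stat2, higher in TCEP, against 10.3% of all genes, and for 0 genes in the lower direction, against 7.06%. The median depended on single animals: it was -0.064 without TCEP animal 1 and 0.203 without TCEP animal 2.

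**Figure D2:**
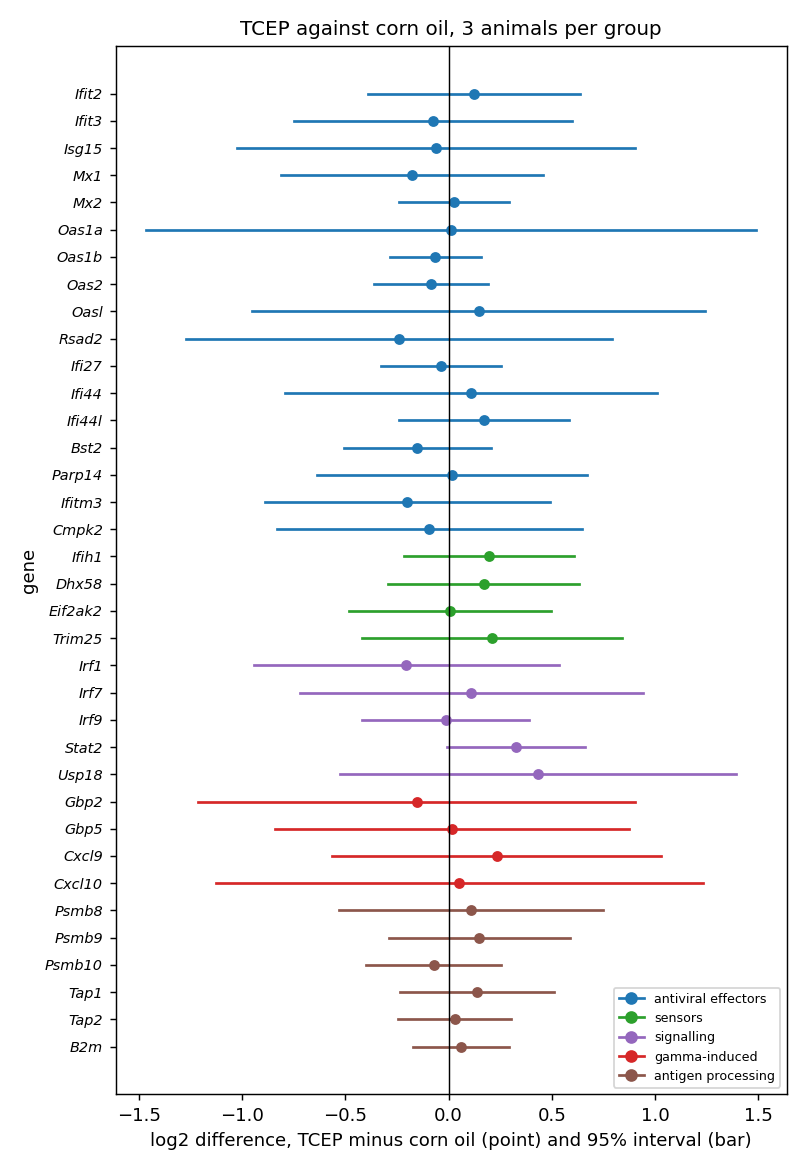
Log2 difference of each of the 36 genes, TCEP minus corn oil (points), with its 95% interval from the limma fit (bars), 3 animals per group, coloured by role. All 36 intervals include 0; that of Stat2 begins at -0.0053 and those of Oas1a, Usp18 and Cxcl10 are among the widest.

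Animals of the same group were compared by their span, a measure unlike a difference of means. The median span of the 36 genes was 0.53 log2 units in corn oil and 0.58 in TCEP, and over all genes tested 0.36 and 0.27. The median absolute difference of means was 0.11 for the 36 genes and 0.14 over all genes tested. In the TCEP group, 13 of the 36 genes (36.1%) spanned at least 2-fold between the lowest and the highest animal, against 5.12% of all genes. In the corn oil group 6 genes (16.7%) did so, against 9.85%. In each of the 13, TCEP animal 1 was the highest and TCEP animal 2 the lowest of the group. That order was found for 19 of the 36 genes (52.8%) against 11.5% of all genes, and TCEP animal 1 lay above TCEP animal 2 in 29 of 36 (80.6%) against 42.3%. The order was noticed in these data, so the counts describe it and test nothing. Since TCEP animals 1 and 2 were the extremes of all 13, removing either had to narrow those spans, and removing animal 3 could not. Leave-out counts therefore check nothing. Without TCEP animal 1 the count of 13 became 1 (Cxcl10), against 2.95% of all genes. Without TCEP animal 2 it became 1 (Oasl), against 2.52%, and without TCEP animal 3 it stayed at 13, against 2.44%. At the 2-fold limit, Ifit3 spanned 2.00-fold and Mx1, the next, 1.87-fold.

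**Figure D3:**
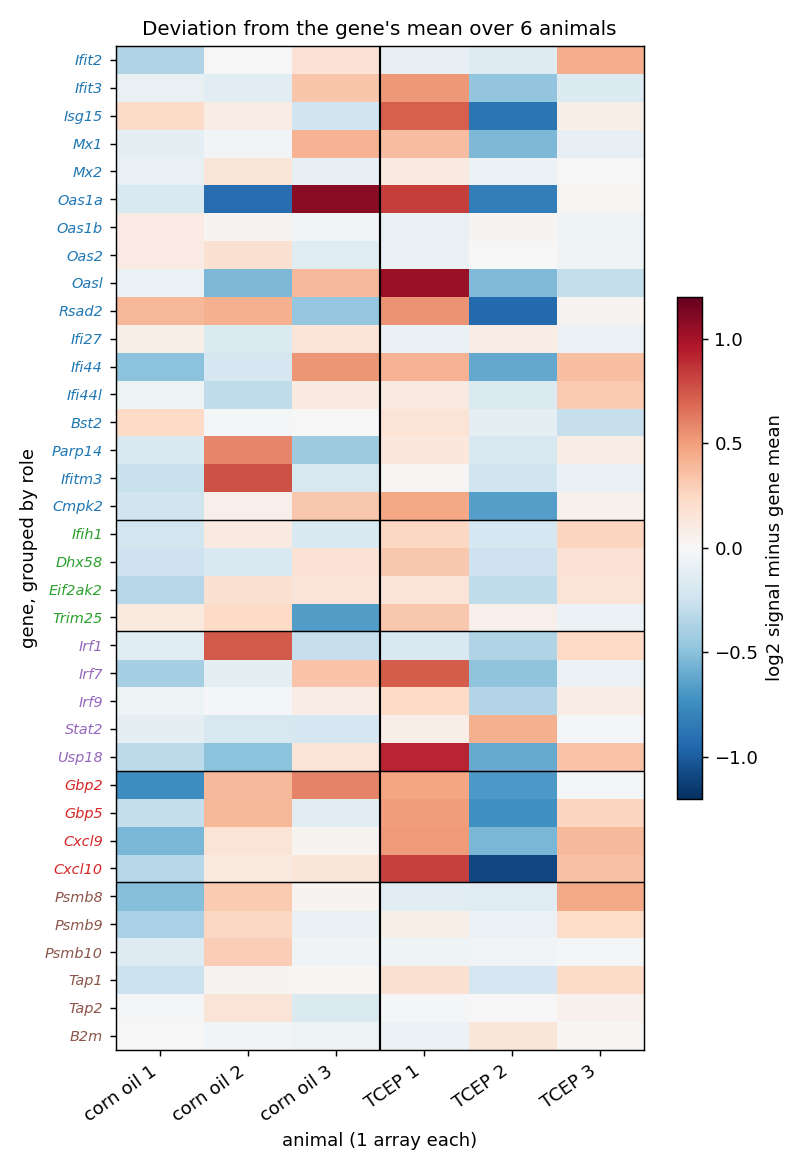
Deviation of each gene's log2 signal from its mean over the 6 animals (colour), with 1 row per gene in 5 role groups and 1 column per animal. The column of TCEP animal 1 is mostly red and that of TCEP animal 2 mostly blue for the effectors and the gamma-induced genes, while the rows of Oas1b, Ifi27, Tap2 and B2m are nearly uncoloured.

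The antiviral effectors were the largest role group, with 17 of 18 listed genes measured. Their median log2 difference was -0.061, and 7 of the 17 had a higher mean in TCEP. Isg15, a ubiquitin-like protein that is attached to other proteins, had log2 signals of 1.74, 1.60 and 1.27 in corn oil animals 1, 2 and 3 and of 2.23, 0.63 and 1.58 in TCEP animals 1, 2 and 3. TCEP animals thus held both the highest and the lowest value, 3.03-fold apart, with all corn oil animals between them. Rsad2, also called viperin, which makes a chain-terminating nucleotide, read 0.68, 0.71 and -0.19 in corn oil and 0.82, -0.65 and 0.31 in TCEP. The groups overlapped fully, and the difference of -0.24 ± 0.43 (SE; limma adjusted p 0.886) was smaller than the spread among TCEP animals (SD 0.75). A second probe of Rsad2 gave the same lowest animal, with -0.14, -0.14 and -1.10 in corn oil and -0.26, -1.74 and -0.49 in TCEP. Cmpk2, a mitochondrial nucleotide kinase, read -0.67, -0.37 and -0.11 in corn oil and 0.04, -1.09 and -0.38 in TCEP, again with both extremes in TCEP.

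The RNA-binding Ifit3, which holds back translation of foreign RNA, read -1.96, -2.01 and -1.53 in corn oil and -1.35, -2.35 and -2.03 in TCEP. Ifi44, a gene of unsettled molecular function, read 1.29, 1.58 and 2.31 in corn oil and 2.20, 1.17 and 2.14 in TCEP, and all 3 of its probes had TCEP animal 1 as the highest and TCEP animal 2 as the lowest animal of that group. In Ifi44, unlike Isg15, the corn oil animals spread as widely as the TCEP animals, 2.04-fold in each group. Oasl, a 2′-5′ oligoadenylate synthetase-like protein, spanned 2.95-fold in TCEP, from -4.67 in animal 2 to -3.11 in animal 1, but was well above background in only 2 of 3 corn oil animals. Mx1, a dynamin-like GTPase that traps viral particles, read 1.66, 1.74 and 2.20 in corn oil and 2.14, 1.24 and 1.68 in TCEP. Its difference of -0.18 lay inside the overlap of the groups.

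Mx2, a relative of Mx1, gave different pictures on its 2 probes. The brighter probe read 6.64, 6.87 and 6.63 in corn oil and 6.83, 6.65 and 6.73 in TCEP. The dimmer probe read -1.85, -1.92 and -1.41 in corn oil and -1.04, -2.73 and -1.31 in TCEP, with TCEP animal 1 highest and TCEP animal 2 lowest of all 6. Which probe follows the Mx2 transcript was not tested.

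Oas1a and Oas1b belong to a family of oligoadenylate synthetases that activate the ribonuclease RNase L, and they are neighbours on chromosome 12. Oas1a read 2.20, 1.48 and 3.47 in corn oil and 3.22, 1.56 and 2.40 in TCEP. It spanned 3.97-fold in corn oil, with animal 3 the highest of all 6, and 3.15-fold in TCEP. The second probe of Oas1a placed the 6 animals in the same order, with -0.68, -1.42 and 0.67 in corn oil and 0.58, -1.16 and -0.27 in TCEP. Oas1b read 5.99, 5.93 and 5.86 in corn oil and 5.82, 5.93 and 5.84 in TCEP, and spanned 0.14 log2 units in corn oil and 0.11, or 1.08-fold, in TCEP. The 250 bases before the 2 gene starts, Oas1a at chr12:41330216-41330465 on the plus strand and Oas1b at chr12:41395853-41396102 on the minus strand, are printed because both hold the same pair of overlapping response element cores, in capitals and 16 bases long, and share a further run of 41 identical bases.
Oas1a: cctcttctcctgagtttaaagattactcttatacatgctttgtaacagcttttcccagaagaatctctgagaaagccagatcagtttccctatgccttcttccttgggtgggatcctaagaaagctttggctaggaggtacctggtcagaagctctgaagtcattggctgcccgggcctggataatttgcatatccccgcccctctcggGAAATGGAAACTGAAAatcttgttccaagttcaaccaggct
Oas1b: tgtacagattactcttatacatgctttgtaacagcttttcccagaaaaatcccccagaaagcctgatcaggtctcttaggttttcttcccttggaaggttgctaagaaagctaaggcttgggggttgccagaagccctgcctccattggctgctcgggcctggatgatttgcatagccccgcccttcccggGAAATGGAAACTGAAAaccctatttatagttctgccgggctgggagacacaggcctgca
Copies of this family may share probe signal, which was not tested. The related Oas1i and Oas1k, which are outside the 38 genes, ordered the animals as Oas1a did, from -1.32 and -1.35 in corn oil animal 2 to 0.89 and 0.73 in corn oil animal 3. Oas2, another synthetase, spanned only 1.06-fold in TCEP.

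Other effectors varied less among TCEP animals on their brightest probe, or varied in corn oil only. Ifi27, a small hydrophobic mitochondrial protein with the brightest probe among the effectors, read 8.39, 8.15 and 8.47 in corn oil and 8.24, 8.41 and 8.25 in TCEP. Ifitm3, which blocks viral entry at endosomal membranes, read 2.36, 3.39 and 2.43 in corn oil and 2.64, 2.38 and 2.54 in TCEP. Corn oil animal 2 was the highest of the 6, and the difference was -0.20 ± 0.28 (SE; limma adjusted p 0.849). Parp14, a mono-ADP-ribosyltransferase, was likewise highest in corn oil animal 2, at 4.32 against 3.31 to 3.86 in the other animals, as was Irf1. Corn oil animal 2 was the highest of all 6 in 9 of the 36 genes (25.0%) against 17.9% of all genes, and its slide and scan day cannot be told apart from the animal. Ifit2, Ifi44l and the membrane tether Bst2 spanned 1.51-fold, 1.40-fold and 1.36-fold in TCEP. The dimmer second probe of Ifit2 read -3.06, -3.40 and -2.12 in TCEP, a span of more than 2-fold with TCEP animal 3 the highest.

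The 4 measured sensors all had a higher mean in TCEP, with a median log2 difference of 0.18, and 0 of the 4 spanned 2-fold within a group. Trim25, a ubiquitin ligase that activates the RNA sensor RIG-I, read 4.35, 4.47 and 3.57 in corn oil and 4.56, 4.30 and 4.16 in TCEP. Corn oil animal 3 was the lowest and the other 5 overlapped, with a difference of 0.21 ± 0.26 (SE; limma adjusted p 0.823). Ifih1 (MDA5), which senses long double-stranded RNA, read -1.19, -0.86 and -1.15 in corn oil and -0.73, -1.18 and -0.71 in TCEP. TCEP animal 2 lay among the corn oil animals, and the difference was 0.20 ± 0.17 (SE; limma adjusted p 0.738). Dhx58 (LGP2), a regulator of both sensors, read -0.95, -0.88 and -0.52 in corn oil and -0.38, -0.95 and -0.52 in TCEP. Its other 2 probes also had a higher mean in TCEP, by 0.43 and 0.21. On the dimmer of these the groups did not overlap, and on the other TCEP animal 1 was the lowest of its group. Eif2ak2 (PKR), the kinase that stops translation on double-stranded RNA, differed by 0.0077 on its brightest and by -0.12 on its second probe.

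Among the 5 signalling genes, the median log2 difference was 0.11. Stat2, a transcription factor of the type I complex, read 3.92 and 3.91 in corn oil animals 2 and 3, with animal 1 the highest of the group at 0.092 above animal 3, and 4.19, 4.54 and 4.09 in TCEP. Every TCEP animal lay above every corn oil animal, with a difference of 0.33 ± 0.14 (SE) that did not pass (limma adjusted p 0.543). Stat2 had TCEP animal 2 as the highest of the 6, above TCEP animal 1, whereas 29 of the 36 genes had TCEP animal 1 above TCEP animal 2. On its second probe the difference was 0.23, with -0.81, -0.74 and -0.56 in corn oil and -0.56, -0.31 and -0.55 in TCEP.

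Usp18, the protease that removes ISG15 and damps the type I receptor, had the largest difference of the 36 genes, 0.43 ± 0.40 (SE; limma adjusted p 0.754). It read -0.38, -0.56 and 0.09 in corn oil and 0.85, -0.67 and 0.28 in TCEP, so that the TCEP animals held the highest, the next highest and the lowest value. Its other 2 probes also had TCEP animal 1 highest and TCEP animal 2 lowest of the 6. Irf7, the transcription factor that amplifies type I interferon production, read 1.44, 1.73 and 2.18 in corn oil and 2.56, 1.35 and 1.76 in TCEP. The extremes were again TCEP animals 1 and 2, 2.32-fold apart, and Irf9, the DNA-binding part of the type I complex, had the same 2 extremes at 1.51-fold. Irf1, which is induced by interferon gamma, read 3.08, 3.96 and 2.94 in corn oil and 3.04, 2.86 and 3.46 in TCEP, with a difference of -0.21 ± 0.30 (SE; limma adjusted p 0.856).

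All 4 genes grouped as induced by interferon gamma spanned at least 2-fold among TCEP animals, and all 4 had TCEP animal 1 highest and TCEP animal 2 lowest of that group. The pattern was not particular to this role group, since Isg15, Rsad2 and Usp18 had it too. Irf1, induced by interferon gamma but grouped with signalling, spanned 1.52-fold in TCEP, with TCEP animal 3 the highest of its group. Cxcl10, a chemokine that attracts T cells through CXCR3, read -0.51, -0.05 and -0.02 in corn oil and 0.65, -1.26 and 0.19 in TCEP. Its TCEP animals spanned 3.78-fold, the most of the 36 genes, and its corn oil animals 1.40-fold. Its means were nearly equal, -0.19 ± 0.27 in corn oil and -0.14 ± 1.00 in TCEP (SD, n = 3 each). Cxcl9, a ligand of the same receptor, read -0.65, 0.06 and -0.07 in corn oil and 0.40, -0.65 and 0.28 in TCEP, with the lowest values of both groups level. Gbp2, a guanylate-binding protein that acts on vacuoles of intracellular pathogens, read 0.15, 1.28 and 1.49 in corn oil and 1.37, 0.21 and 0.88 in TCEP. For Gbp2 each group held 1 low animal, corn oil animal 1 and TCEP animal 2. Gbp5, a relative that promotes inflammasome assembly, read -1.56, -0.88 and -1.41 in corn oil and -0.78, -2.01 and -1.02 in TCEP.

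The 6 antigen processing genes varied little among TCEP animals, with a median span of 1.19-fold, and 0 spanned 2-fold in either group. The median log2 difference was 0.085, and 5 of the 6 had a higher mean in TCEP. Psmb9, a catalytic subunit of the immunoproteasome, read 2.28, 2.91 and 2.59 in corn oil and 2.74, 2.60 and 2.88 in TCEP. Psmb8, another catalytic subunit, read 2.29, 3.12 and 2.83 in corn oil and 2.66, 2.65 and 3.25 in TCEP. In both genes corn oil animal 1 was the lowest of all 6, and the differences were 0.15 ± 0.18 and 0.11 ± 0.26 (SE; limma adjusted p 0.818 and 0.921). Psmb10, the remaining inducible subunit, read 3.95, 3.97 and 3.97 in TCEP, a span of 1.02-fold, and from 3.85 to 4.30 in corn oil.

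Tap1, a subunit of the peptide transporter, read -0.46, -0.17 and -0.19 in corn oil and -0.03, -0.40 and 0.02 in TCEP, with a difference of 0.14 ± 0.15 (SE; limma adjusted p 0.799). TCEP animal 2 was low for Tap1 but not for its partner Tap2, which spanned 1.04-fold in TCEP. B2m, the light chain of class I molecules, read 9.26, 9.22 and 9.19 in corn oil and 9.19, 9.40 and 9.27 in TCEP, and TCEP animal 2 was the highest animal of that group on all 5 of its probes.

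**Figure D4:**
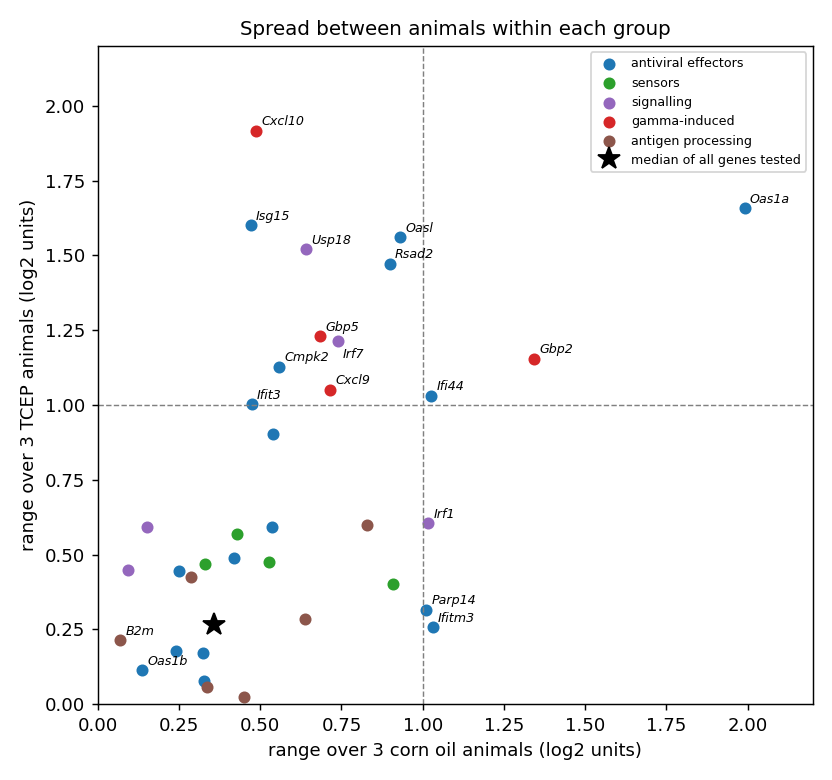
Range of the log2 signal over the 3 corn oil animals (horizontal) against that over the 3 TCEP animals (vertical) for each of the 36 genes, coloured by role; dashed lines mark a 2-fold span and the star is the median of all genes tested. The 13 genes above the horizontal line include all 4 gamma-induced genes and none of the sensors or antigen processing genes; Oas1a, Gbp2 and Ifi44 lie beyond both lines.

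Genes with wide and with narrow spans stood on both sides of a split by the response element core, and the difference between the sides was not tested. The 21 measured genes with a core in their window had a median span of 1.39-fold in TCEP, from 1.02-fold (Psmb10) to 3.78-fold (Cxcl10), and 8 of them spanned 2-fold. The 9 measured genes without one had a median span of 1.52-fold, from 1.22-fold to 2.95-fold, and 3 of them, Oasl, Cmpk2 and Cxcl9, spanned 2-fold. Isg15 and Usp18, which also spanned 2-fold, have no window and are in neither count. Psmb10, with 2 separate cores, and Oas1b, with the pair of cores printed above, were among the narrowest.

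Over all 36 genes, the median deviation from each gene's mean was -0.17, 0.075 and 0.022 in corn oil animals 1, 2 and 3 and 0.21, -0.24 and 0.050 in TCEP animals 1, 2 and 3. Over all genes tested the 6 medians lay between -0.016 and 0.023. TCEP animal 1 was the highest of all 6 in 13 genes (36.1%) against 9.70% of all genes, and TCEP animal 2 the lowest in 12 (33.3%) against 10.3%. Corn oil animal 1 was the lowest in 11 (30.6%) against 15.2%, among them Gbp2, Cxcl9, Psmb8, Psmb9 and Tap1.

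Markers of immune cells moved with some of these animals, and in whole liver RNA fewer cells of a type and less RNA per cell cannot be told apart. Of 20 listed T and natural killer cell markers, 15 were tested. All 15 were higher in TCEP animal 1 than in TCEP animal 2, against 42.3% of all genes. TCEP animal 2 was the lowest of all 6 in 10 of them (66.7%) against 10.3%. In TCEP 5 (33.3%) spanned 2-fold, against 5.12%. Prf1, the pore-forming protein of cytotoxic cells, read -0.44, -0.17 and -0.53 in corn oil and 0.17, -1.07 and -0.31 in TCEP. The summed level of the list, as log2, ran from 2.46 to 2.83 in corn oil and from 2.23 to 2.89 in TCEP. The defining T cell markers Cd3e and Cd5 failed the background criterion on every array. Whether these cells had a part in the spread of the interferon genes was not tested.

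Of 16 listed macrophage and Kupffer cell markers, 14 were tested. Corn oil animal 1 was the lowest of all 6 in 13 of them (92.9%) against 15.2% of all genes. In corn oil 13 (92.9%) spanned 2-fold, against 9.85%, but in TCEP 1 (7.14%) did so, against 5.12%. TCEP animal 1 was above TCEP animal 2 in 11 of the 14 (78.6%) against 42.3% of all genes, with medians of -0.072 and -0.23. Clec4f, a Kupffer cell lectin, read 5.23, 5.92 and 6.34 in corn oil and 5.64, 5.63 and 5.85 in TCEP. The summed level ran from 7.01 to 8.16 in corn oil and from 7.45 to 7.71 in TCEP. The part of these cells in the low values of corn oil animal 1, and in the order of TCEP animals 1 and 2, was not tested. Of the other cell lists, 4 of 9 dendritic cell markers and 6 of 9 B and plasma cell markers were tested, and their medians for TCEP animals 1 and 2 were -0.15 and -0.15, and -0.031 and 0.28. Of 8 neutrophil markers 3 were tested, with medians of -0.38 and 0.58, and of 8 endothelial markers 5, with -0.065 and -0.045, so that in these 4 lists TCEP animal 1 was level with TCEP animal 2 or below it. In TCEP, 4 B and plasma cell markers and 2 neutrophil markers spanned 2-fold (66.7% of each list), and 0 dendritic or endothelial markers did.

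**Figure D5:**
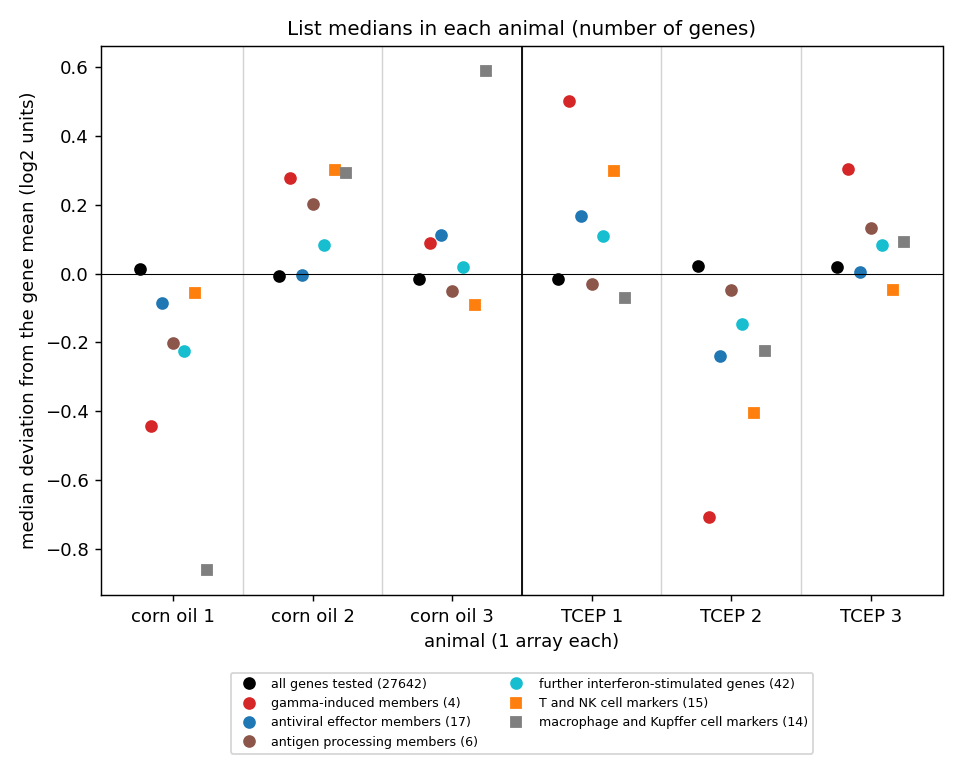
Median deviation from the gene mean (log2 units, vertical) of gene lists in each of the 6 animals (horizontal), circles for the interferon-related lists and all genes, squares for cell markers, with the number of genes in the legend. Gamma-induced genes and T and natural killer cell markers are both lowest in TCEP animal 2 (-0.71 and -0.41) and stand at 0.50 and 0.30 in TCEP animal 1. They stand at 0.28 and 0.30 in corn oil animal 2, but part in corn oil animal 1 (-0.44 and -0.057), corn oil animal 3 (0.088 and -0.092) and TCEP animal 3 (0.31 and -0.049). Macrophage markers are lowest in corn oil animal 1 (-0.86).

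The rest of the pathway was read from further lists, in which 0 genes passed the adjusted threshold. At an unadjusted p under 0.05 (limma), 5.01% of all genes tested were higher in TCEP and 4.19% lower. In the direction named below, the interferon and receptor, sensing adaptor and class I lists held larger shares than these. The further interferon-stimulated and class II lists held smaller ones. Each count rests on very few genes and is given as a description. Of 25 listed interferons, receptors, kinases and their inhibitors, 13 were tested and 2 were lower in TCEP at an unadjusted p under 0.05. They were Socs3, an inhibitor of JAK kinases, with -0.38 ± 0.11, and the phosphatase Ptpn11, with -0.30 ± 0.10 (SE; limma adjusted p 0.484 and 0.521). The interferon genes Ifnb1 and Ifng failed the background criterion on every array. Of 23 listed sensing adaptors and regulators 13 were tested, and Irf8, a transcription factor of myeloid cells, was lower at that level, with -3.86, -3.51 and -3.66 in corn oil and -4.26, -4.24 and -4.08 in TCEP (limma adjusted p 0.449). Its probe was dim, in the signal range of the Oasl probe, and such probes are the least certain.

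Of 70 further interferon-stimulated genes, 42 were tested, with a median log2 difference of 0.037. Casp4, the inflammatory caspase that senses cytosolic lipopolysaccharide, was the 1 gene at an unadjusted p under 0.05. It read -0.47, -0.66 and -0.03 in corn oil and 0.53, 0.40 and 1.48 in TCEP, a difference of 1.19 ± 0.32 (SE; limma adjusted p 0.477). In this list 11 genes (26.2%) spanned 2-fold in TCEP and 12 (28.6%) in corn oil, against the same 5.12% and 9.85% of all genes. Of the 42, 36 (85.7%) were higher in TCEP animal 1 than in TCEP animal 2, against 42.3% of all genes. TCEP animal 1 was the highest and TCEP animal 2 the lowest of the group in 15 of the 42 (35.7%) against 11.5% of all genes, and in 6 of the 11 that spanned 2-fold. Rtp4, a receptor-transport protein named here after its values were seen, read 2.29, 2.34 and 2.50 in corn oil and 3.77, 1.54 and 2.41 in TCEP.

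Of 31 further class I presentation genes, 24 were tested. Psme1, a subunit of the proteasome activator PA28, was higher by 0.27 ± 0.08 and Cd1d1, which presents lipids, by 0.35 ± 0.13 at an unadjusted p under 0.05 (SE; limma adjusted p 0.508 and 0.531). Corn oil animal 1 was the lowest in 12 of the 24, and for RT1-A2, a class I heavy chain named after its values were seen, it read 2.95 against 4.25 to 4.94 elsewhere. Class I genes are near-identical copies, and which copies or alleles their probes read was not tested. The constitutive proteasome subunits Psmb5, Psmb6 and Psmb7, which the inducible ones replace, differed by 0.085, 0.063 and -0.023. Of 16 class II presentation genes 13 were tested and 0 had an unadjusted p under 0.05 in limma. TCEP animal 1 was above TCEP animal 2 in 10 of the 13 (76.9%). That share was also 76.9% in the sensing adaptors, but 46.2% in the interferons, receptors and kinases. The brightest class II probes were those of Ifi30, a thiol reductase, with a difference of 0.14, and Cd74, the invariant chain, with 0.0062.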

How the data were processed

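Signals were extracted by the authors with Agilent Feature Extraction, version 10.7.1.1 per the file headers and 10.7 per the submitters' processing notes. The deposited scanner files hold background-subtracted and median intensities on a linear scale, with flags. In the deposited value table each signal is a ratio to the 75th percentile of its array, as read from the values. Here, log2 of the processed intensity minus the 75th percentile over 61657 non-control probes was used. Of 62976 spots, 1319 controls were left out. Over all arrays, 64 outlier-flagged spots were set to missing and 5 saturated spots kept. The filter asked for a signal well above background on every array of 1 group or both, which 37043 probes met. RefSeq symbols (GRCr8) were matched to 27460 probes by unversioned accession, and 10982 of 27642 genes carry a symbol. The array design names an older build (rn4), so no probe coordinates are given. Of 66 probes of the genes described, 63 were kept, and 19 genes had several.

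The groups were compared over all genes in R 4.3.3 with limma 3.58.1 (lmFit, then eBayes). P-values were two-sided, were adjusted by Benjamini-Hochberg and were called under 0.05. The model was run on simulated data with independent noise drawn from its own fitted variances and no slide effect. That run checks the code and not the fit of the model to these arrays. Replicates were taken as animals, since the labels speak of 3 per group, and the number of arrays limits the precision (median SE 0.14). Samples with the same replicate number did not deviate together (correlations -0.048, -0.16 and -0.015). Spans and counts over 27632 genes leave out genes with a missing value.

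The genes and lists were chosen with earlier results of these data known. Values on every array were planned for genes at an unadjusted p under 0.05 and, per role, for the 3 largest differences and the brightest gene; from other lists, up to 4 genes at that p or the 2 brightest. Isg15, Oas1a, Oas1b, Mx2, Cmpk2, Ifit3, Ifi44, Oasl, Irf7, Gbp5, Psmb10 and the constitutive proteasome subunits were also printed, for their values or role. Alternatives were quantile normalization, median centring, normexp (on the median signal, with an offset of 50), the deposited table, 2 other filters, the mean over probes, every probe, robust eBayes, slide and replicate blocks, outlier spots retained, and each array left out in turn.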

Additional observations from a re-analysis of the deposited data

How the results depend on the processing

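Under every alternative run, 0 genes and 0 of the interferon genes passed the adjusted threshold. The smallest adjusted p over all genes (limma) lay between 0.060 and 0.743. The count of 0 interferon genes at an unadjusted p under 0.05 was less stable. It was 1 with median centring, robust eBayes, slide as a random block and the filter on all 6 arrays. Without TCEP animal 2 it was 2, and without TCEP animal 3 it was 1. With every probe on its own, 1 of 63 probes passed, and in the other alternatives the count stayed at 0. With the replicate number as a block the interferon genes again gave 0 calls and a median of 0.021, and 1901 genes had an unadjusted p under 0.05. With slide as a random block their median was 0.029. All TCEP arrays shared slide 3, so that setting could not separate slide from treatment. The median lay between 0.012 (quantile normalization) and 0.081 (median centring, which moved the median of all genes to 0.064) under the processing alternatives, and between -0.064 and 0.203 with 1 array left out. Of the 36 genes, 10 changed the sign of their difference in at least 1 of 11 processing alternatives and 25 when the 6 fits without 1 array are added. Among the 11, robust eBayes, the replicate block, the 2 other filters and retained outlier spots gave the same differences as the main fit for the genes they kept. Those settings could not show a change of sign. The count of 13 genes that span 2-fold among TCEP animals, an outcome and alternatives chosen after seeing the data, was 8 with normexp, which adds an offset to every signal (2.24% of all genes spanned 2-fold there), 11 with the mean over probes, 12 with the filter on all 6 arrays and 13 with quantile normalization, median centring, the deposited table, no filter and outlier-flagged spots kept. It was not computed for every probe on its own, and the choice of eBayes or block does not enter it. With 1 TCEP array left out it ranged from 1 to 13, which checks nothing, since TCEP animals 1 and 2 were the extremes of all 13. Dim probes, such as those of Oasl, are the least certain, and 3 animals per group leave intervals wide: that of Oas1a ran from -1.47 to 1.49.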
